A study of Mus musculus with 12 samples.

Results

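The 35 Hox genes of the 4 mouse clusters (Hoxa, 11 genes; Hoxb, 10; Hoxc, 7; Hoxd, 7) were taken from the 17901 genes of the deposited table by name: Hox, then a cluster letter, then a paralogue number, with antisense and other noncoding names left out. Hoxc11, Hoxc12, Hoxd10 and Hoxd12 were not analysed here. Of the 35 genes, 32 passed the filter on low values (a normalized count of 10 or more in at least 3 libraries), as did 15750 genes of the table. Hoxa11, Hoxa13 and Hoxd11 did not pass and were not tested.

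Hox genes encode homeodomain transcription factors that give cells a position along the head to tail axis. Each cluster is ordered: genes of low paralogue number lie at its 3′ end and are used early and far forward, and genes of high paralogue number lie at its 5′ end and are used late and towards the tail. In embryonic stem (ES) cells the clusters are held silent under Polycomb and carry both active and repressive histone marks, and retinoic acid (RA) switches them on, the 3′ genes first.

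Total RNA of the mouse ES cell line TT2 was sequenced as paired-end reads. The groups were Rlf/Zfp292 double knockout (DKO) cells after 72 h in 5 µM RA without LIF, wild-type (WT) cells after the same treatment, DKO cells kept in medium with LIF (named Serum/LIF), and WT cells in Serum/LIF, with 3 libraries each. Rlf and Zfp292 encode related zinc finger proteins, and both genotypes share the TT2 background. The labels speak of biological replicates and do not say whether the DKO cells were 1 clone or how cultures were kept apart, so p-values here measure the spread between these libraries.

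Each library held between 30869766 and 40236799 reads in genes. All levels below are normalized counts, which are reads divided by 1 size factor per library. Replicate 2 of WT after RA stood further from its replicates than any other library, at a chi-square over genes of 10.5 and 14.9 per degree of freedom from the other WT libraries, which lay 5.19 apart. Results that rest on it are given with and without it. Markers of cell types were also called by genotype (limma, adjusted p under 0.05). Over all genes tested, 22% were higher and 20.7% lower in DKO after RA, and 17.8% higher and 15.4% lower in Serum/LIF. The 1 of 4 mesoderm markers after RA and the 1 of 5 endoderm markers in Serum/LIF lie near these shares. After RA all 7 ES cell markers were higher in DKO (summed level 9977 to 10730.4 in DKO libraries and 5080 to 5576 in WT libraries), as were 4 of 6 fibroblast markers (62279 to 64753 in DKO and 48398 to 50179 in WT), 3 of 5 endoderm markers (1444 to 1678 in DKO and 1299 to 1436 in WT) and 1 of 4 mesoderm markers tested, while 4 of 5 neural markers tested were lower and 1 higher (12336 to 12549 in DKO and 13761 to 14035 in WT). In Serum/LIF 5 of 6 fibroblast markers were higher in DKO (21971 to 23361 in DKO and 7257 to 7352 in WT), 2 of 4 mesoderm markers were higher (389 to 403 in DKO and 149.9 to 161 in WT), 3 of 5 neural markers were higher and 1 lower, 1 of 5 endoderm markers was higher, and 4 of 7 ES cell markers were lower (114129 to 116519 in DKO and 123931 to 128591 in WT). Of these markers, Neurog2 had 0 reads in DKO with Serum/LIF and Mesp1 had 0 in WT after RA, and no other had 0 over a group. Their part in the Hox results was not tested.

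The genes lie on chr6:52162417-52260880 (Hoxa2 to Hoxa13, minus strand), chr11:96194316-96368253 (Hoxb, plus strand), chr15:102921131-103036852 (Hoxc, plus strand) and chr2:74668225-74765142 (Hoxd, plus strand) of mm10. The 250 bases upstream of the transcript start are shown for 6 genes on which the results turn: the neighbours Hoxa5 and Hoxa6, which responded to the genotype unequally after RA, Hoxb1, called by genotype in Serum/LIF and not after RA, Hoxb8, called after RA and not in Serum/LIF, Hoxd3, the gene with 0 reads in every Serum/LIF library, and Hoxd13, which was not called with RA in either genotype. Sequences are from RefSeq (GRCm38.p6, the mm10 assembly), 5′ to 3′ on the strand of the gene, and capitals mark AGGTCA and AGTTCA (nuclear receptor half-sites), TGATNNAT (the form bound by Hox proteins with a TALE cofactor) and TTTATG (the caudal form) on either strand.
Hoxa5 promoter, chr6:52204588-52204837, minus strand: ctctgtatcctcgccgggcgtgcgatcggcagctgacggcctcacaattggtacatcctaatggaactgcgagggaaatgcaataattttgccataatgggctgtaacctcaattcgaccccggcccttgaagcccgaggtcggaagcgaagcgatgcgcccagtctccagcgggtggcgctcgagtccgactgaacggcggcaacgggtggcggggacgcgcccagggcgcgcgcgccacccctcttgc
Hoxa6 promoter, chr6:52208673-52208922, minus strand: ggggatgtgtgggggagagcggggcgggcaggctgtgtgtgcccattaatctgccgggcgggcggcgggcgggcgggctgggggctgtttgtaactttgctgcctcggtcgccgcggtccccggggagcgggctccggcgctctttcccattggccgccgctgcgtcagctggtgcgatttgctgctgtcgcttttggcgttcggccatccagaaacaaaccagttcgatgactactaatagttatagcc
Hoxb1 promoter, chr11:96365508-96365757, plus strand: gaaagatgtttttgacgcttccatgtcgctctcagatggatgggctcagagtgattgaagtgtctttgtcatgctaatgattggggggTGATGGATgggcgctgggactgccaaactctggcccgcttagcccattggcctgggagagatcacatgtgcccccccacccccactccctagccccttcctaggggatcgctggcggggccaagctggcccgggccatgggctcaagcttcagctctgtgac
Hoxb8 promoter, chr11:96281655-96281904, plus strand: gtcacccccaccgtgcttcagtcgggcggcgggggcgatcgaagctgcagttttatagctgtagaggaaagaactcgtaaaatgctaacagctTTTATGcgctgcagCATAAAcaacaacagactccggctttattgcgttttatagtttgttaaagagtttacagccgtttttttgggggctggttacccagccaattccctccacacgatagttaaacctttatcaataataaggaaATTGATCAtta
Hoxd3 promoter, chr2:74711743-74711992, plus strand: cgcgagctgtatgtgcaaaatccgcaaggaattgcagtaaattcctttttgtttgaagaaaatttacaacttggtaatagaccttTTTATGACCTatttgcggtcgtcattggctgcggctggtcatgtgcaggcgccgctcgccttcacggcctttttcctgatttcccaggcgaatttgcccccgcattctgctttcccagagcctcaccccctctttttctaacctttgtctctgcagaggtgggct
Hoxd13 promoter, chr2:74667975-74668224, plus strand: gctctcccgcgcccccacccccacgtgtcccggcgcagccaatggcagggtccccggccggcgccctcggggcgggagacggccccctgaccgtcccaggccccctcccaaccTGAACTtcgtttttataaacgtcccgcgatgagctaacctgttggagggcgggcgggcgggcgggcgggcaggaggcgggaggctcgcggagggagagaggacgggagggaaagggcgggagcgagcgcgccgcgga

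Of the 35 genes, 19 had a RefSeq promoter whose start matched the start of the transcript in the table. These 19 windows held a median of 13 CpG dinucleotides (lowest 3, highest 35), against a median of 6 over all 32851 promoter windows of the same length. Their median GC content was 59.2%, against 52.4% over all windows. TGATNNAT occurred in 4 of the 19 windows (21.1%) and in 7.68% of all windows. TTTATG was in 4 of 19 (21.1%) against 10.8%, AGGTCA in 4 of 19 (21.1%) against 14.02%, and CCAAT, the box bound by NF-Y, in 11 of 19 (57.9%) against 33.8%. Hoxd3 carries a TTTATG that overlaps an AGGTCA on the other strand, and the Hoxb1 window holds TGATGGAT, the form known from its autoregulatory element. The windows of Hoxa5 and Hoxa6 hold none of the 4 capitalised motifs.

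Apart from the 5′ end of Hoxa and Hoxd, and of Hoxc in WT, nearly the whole of every cluster stood higher after RA. In WT, 28 of the 32 Hox genes tested rose, Hoxa10 fell, and Hoxa9, Hoxc13 and Hoxd13 did not pass the test (limma on log2(value + 1), adjusted p under 0.05 over all genes). In all genes tested, 41.4% rose and 39.2% fell. In DKO cells, 29 rose, none fell, and Hoxa9, Hoxa10 and Hoxd13 did not pass, with 40.2% of all genes higher and 38.2% lower. The 0 genes that fell in DKO stayed 0 at an unadjusted p under 0.05 in limma, and in edgeR and DESeq2. The median log2 fold change over the 32 genes was 6.50 in DKO and 6.28 in WT, and over all genes tested 0.04 in each. A log2 change above 5 was reached by 21 of the 32 genes in DKO, against 0.578% of all genes, and by 23 in WT, against 1.19%. Without the RA libraries, 13 of the 32 would not have passed the filter, which favours genes that are higher after RA. Hoxa9 is among these 13 and was called in neither genotype. The counts therefore describe the response and are no test of it. In bulk RNA, fewer cells that express a gene and less RNA per cell cannot be told apart.

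**Figure D1:**
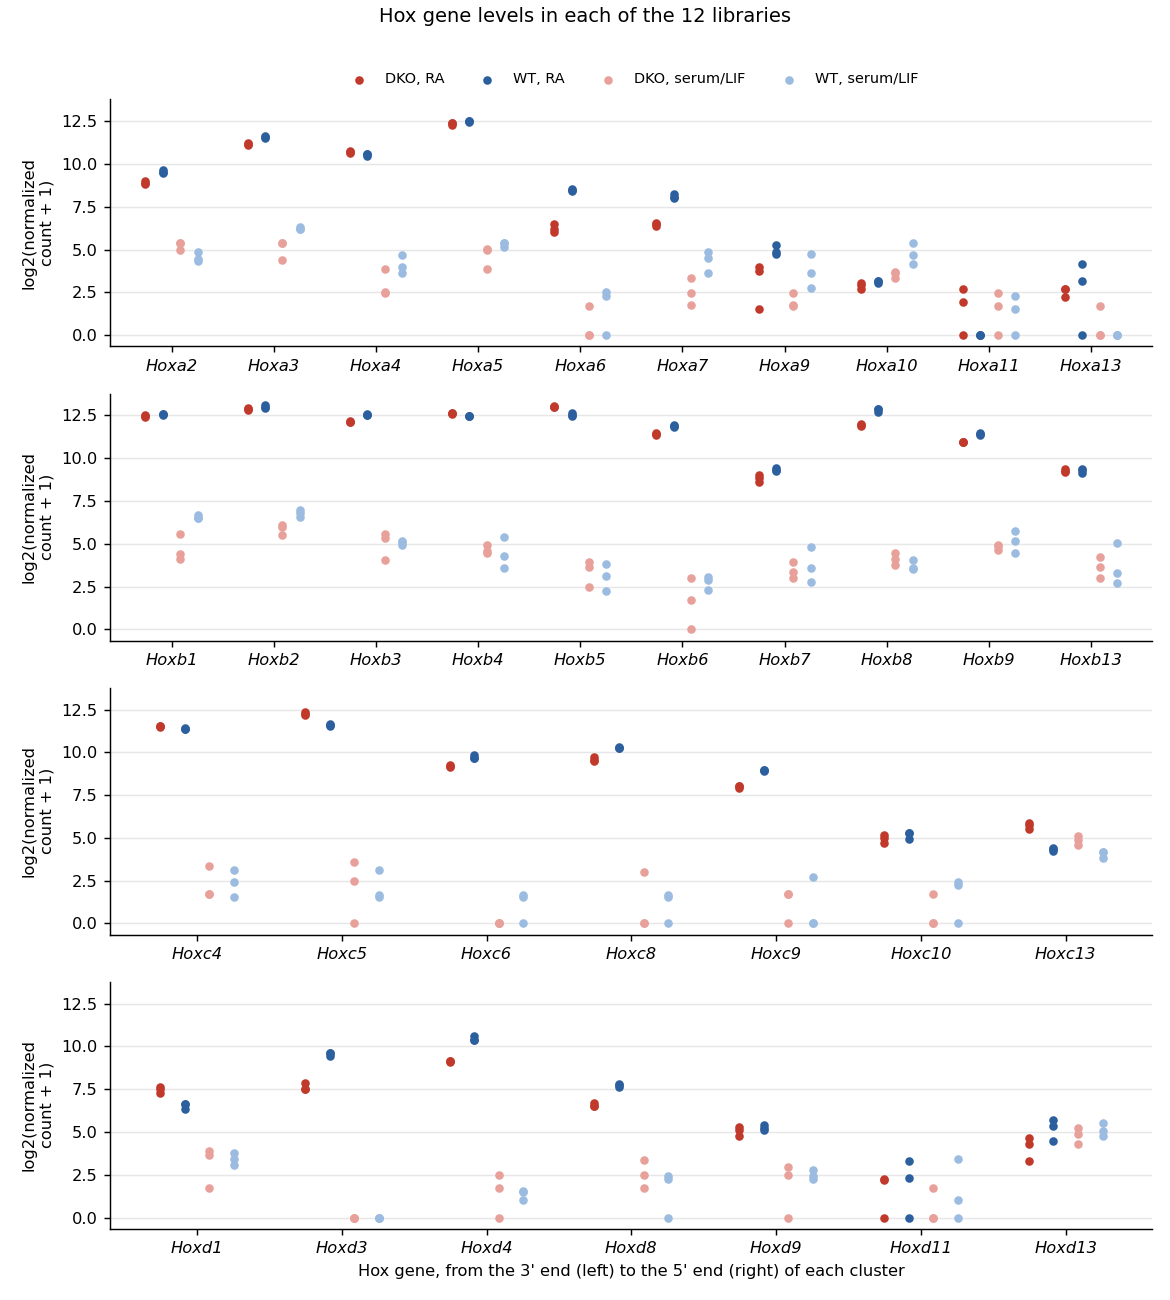
Levels of 34 Hox genes in the 12 libraries, as log2(normalized count + 1), 1 panel per cluster with genes in order from 3′ to 5′ and 1 point per library. Levels can be compared between groups within a gene, not between genes. After RA the points of Hoxa2 to Hoxa7, all of Hoxb, Hoxc4 to Hoxc10 and Hoxd1 to Hoxd9 stand above those in Serum/LIF, and Hoxa10, Hoxa11, Hoxd11 and Hoxd13 stay low in both conditions.

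The response differed between position classes, and the folds did not fall evenly from 3′ to 5′ within a cluster. Most of the 13 genes that needed the RA libraries to pass the filter are paralogues 6 to 9. The counts and medians by position are therefore a description and no test. In paralogues 1 to 5, 15 of 15 genes tested rose in both genotypes, with a median log2 fold change of 7.72 in DKO and 7.20 in WT. In paralogues 6 to 9, 11 of 12 rose in both, with medians of 5.91 in DKO and 6.60 in WT. In paralogues 10 to 13, of which 5 of 8 passed the filter, 3 rose in DKO and 2 rose and 1 fell in WT, with medians of 0.85 in DKO and 0.28 in WT. In Hoxa the changes of Hoxa2 to Hoxa10 ran from -0.66 at Hoxa10 to 7.77 at Hoxa4 in DKO and from -1.63 at Hoxa10 to 7.20 at Hoxa5 in WT. By cluster, the median was 7.45 in DKO and 6.90 in WT for Hoxb, 8.60 in DKO and 8.67 in WT for Hoxc, and 4.22 in DKO and 4.65 in WT for Hoxd. In Serum/LIF only Hoxc13 was detected in Hoxc and only Hoxd13 in Hoxd, in both genotypes. A gene counts as detected in a group at 10 or more normalized counts in all 3 of its libraries.

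On that measure 29 Hox genes were detected in DKO after RA, 31 in WT after RA, 12 in DKO with Serum/LIF and 15 in WT with Serum/LIF. The 5′-most gene detected after RA was Hoxa7 in DKO and Hoxa9 in WT, Hoxb13 in both genotypes, Hoxc13 in both, and Hoxd9 in DKO and Hoxd13 in WT. Hoxc13 and Hoxd13 were also detected in Serum/LIF, so for these clusters the last gene that RA raised in both genotypes was Hoxc10 and Hoxd9. The extents of Hoxa and Hoxd each differ between the genotypes by 1 gene of low level. In DKO after RA, Hoxa9 had 1.90, 14.7 and 12.5 normalized counts and Hoxd13 had 19.0, 23.9 and 8.95. At 10 or more in at least 2 libraries, 31 Hox genes were detected after RA in each genotype. At 3 or more in all 3 libraries, 32 were detected after RA in each, so the difference in extent rests on the rule. Summed over the 35 genes, Hox transcripts took 0.208% to 0.216% of all normalized counts in DKO after RA, 0.232% to 0.245% in WT after RA, 0.00161% to 0.00196% in DKO with Serum/LIF and 0.00233% to 0.00248% in WT with Serum/LIF. The libraries of the 2 genotypes did not overlap in either condition.

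In the Hoxa cluster, Hoxa5, which patterns the neck, shoulder and lung, had the most counts in WT after RA. It had 4994, 5386 and 5318 normalized counts in DKO after RA, 5909, 5967 and 5655 in WT after RA, 32.1, 30.5 and 13.5 in DKO with Serum/LIF, and 34.4, 40.8 and 41.1 in WT with Serum/LIF. Its ratio of means after RA over Serum/LIF was 206 in DKO and 151 in WT. Towards the 5′ end, Hoxa10, a gene of the lumbar spine and the uterus, had 6.64, 7.35 and 5.37 in DKO after RA, 7.21, 8.03 and 8.07 in WT after RA, 11.5, 11.7 and 9.01 in DKO with Serum/LIF, and 24.8, 17.2 and 41.1 in WT with Serum/LIF. Hoxa10 fell in WT after RA, by log2 -1.63 ± 0.49 (SE; limma adjusted p = 0.00399), on 25 reads over the 3 RA libraries and 86 over the Serum/LIF libraries. In DKO the change was -0.66 ± 0.49 (limma adjusted p = 0.223), and the difference between the genotypes was not called (limma adjusted p = 0.311).

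The Hoxb cluster was the one in which every gene of the table rose in both genotypes, up to Hoxb13, the member used in the tail and prostate. Hoxb13 had 648, 577 and 617 normalized counts in DKO after RA, 648, 643 and 571 in WT after RA, 6.88, 11.7 and 18.02 in DKO with Serum/LIF, and 32.5, 8.60 and 5.61 in WT with Serum/LIF. Its mean was 50.2 times higher after RA in DKO and 39.9 times in WT. Among the other paralogues of number 13, Hoxc13 rose by log2 0.85 ± 0.33 in DKO (limma adjusted p = 0.0237; 0.0605 to 0.0824 without DKO replicate 1 or 2 after RA or DKO replicate 1 in Serum/LIF), Hoxd13 did not pass in either genotype, and Hoxa13, which was below the filter, had 3.79, 5.51 and 5.37 normalized counts in DKO after RA, 0, 8.03 and 17.0 in WT after RA, 0, 0 and 2.25 in DKO with Serum/LIF, and 0 in all WT libraries with Serum/LIF. The authors' deposited table called Hoxa13 higher with RA in WT (log2 5.53, adjusted p = 0.00231), on 27 reads after RA and 0 in Serum/LIF, and did not call it in DKO (log2 2.69, adjusted p = 0.138). Hoxb2, a hindbrain gene, had the most counts of the cluster in WT after RA. It had 7567, 7769 and 7219 in DKO after RA, 8060.1, 8935 and 7928 in WT after RA, 63.1, 68.1 and 45.1 in DKO with Serum/LIF, and 122, 92.4 and 112 in WT with Serum/LIF.

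In the Hoxc cluster the first gene, Hoxc4, had 2875, 3012 and 2939 normalized counts in DKO after RA and 2716, 2630.2 and 2653 in WT after RA, while in Serum/LIF it had 2.29, 9.39 and 2.25 in DKO and 7.64, 4.30 and 1.87 in WT. Hoxc5, beside it, had 4845, 5149 and 4692 in DKO after RA and 3034, 3292 and 3048 in WT after RA, against 4.59, 0 and 11.3 in DKO with Serum/LIF and 7.64, 2.15 and 1.87 in WT with Serum/LIF. All RA libraries lay far above all Serum/LIF libraries for both genes. The ratio of means after RA over Serum/LIF was 633 in DKO and 579 in WT for Hoxc4, and 926 in DKO and 804 in WT for Hoxc5, with 12 to 14 Serum/LIF reads per genotype behind each. The span of Hoxc5 also holds the microRNA gene Mir615.

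Within Hoxd, the first and the last of the 5 genes that rose changed less in WT than the 3 between them. Hoxd1 rose by log2 4.38 ± 0.42 in DKO and 3.12 ± 0.42 in WT, and Hoxd9 by 3.25 ± 0.60 in DKO and 2.77 ± 0.60 in WT. Hoxd3 had 0 reads in all Serum/LIF libraries of both genotypes, and its RA level was at least 171-fold higher in DKO and at least 772-fold higher in WT, taking 3 reads over a group as the floor. Hoxc6 had 0 reads in DKO with Serum/LIF and was at least 512-fold higher in DKO after RA by the same floor.

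**Figure D2:**
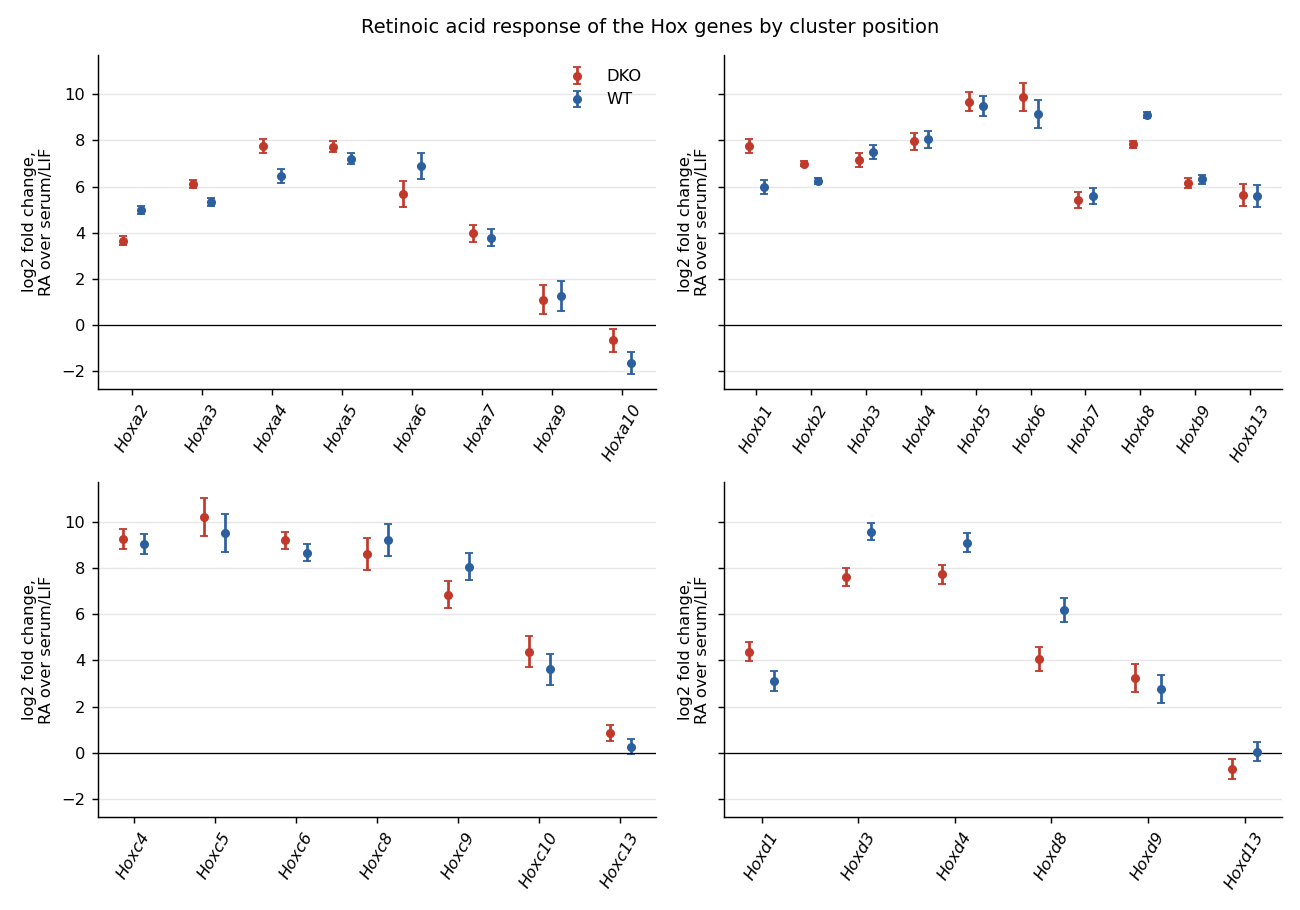
Log2 fold change of RA over Serum/LIF for 31 of the 32 Hox genes tested, DKO left of WT, with bars of 1 SE from limma and genes in order from 3′ to 5′. In Hoxa the change peaks at Hoxa4 and Hoxa5 in DKO and at Hoxa5 in WT and falls to -0.66 in DKO and -1.63 in WT at Hoxa10, at the last gene it is 0.85 in DKO and 0.28 in WT for Hoxc13 and -0.69 in DKO and 0.06 in WT for Hoxd13, and in Hoxb it is still above 5 at Hoxb13.

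Levels can be set side by side between genes only per length of transcript. For 28 of the 35 genes the annotated transcript spanned the same interval as the table within 300 bases, and for these the mean was divided by the transcript length. In WT after RA the highest were Hoxb2 (4618 normalized counts per kb in DKO, 5103 in WT), Hoxb5 (4348 in DKO, 3136 in WT), Hoxa5 (2788 in DKO, 3113 in WT), Hoxb6 (2072 in DKO, 2894 in WT), Hoxb1 (2702 in DKO, 2852 in WT) and Hoxb8 (1483 in DKO, 2759 in WT). The order in DKO was another one, with Hoxb4 (2443 in DKO, 2208 in WT) above Hoxb6 and Hoxc5 (1675 in DKO, 1069 in WT) above Hoxb8. In WT, Hoxb5 and Hoxa5 differed by less than the SD per kb of either (151 and 88.4), and so did Hoxb6, Hoxb1 and Hoxb8 by less than that of Hoxb6 (150.3). No Hoxd gene with such a length passed 221 per kb in DKO or 555 per kb in WT, both values of Hoxd4.

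After RA, the DKO cells had less of most central Hox genes and more of a few 3′ neighbours. The shared-spread limma fit over all 12 libraries called 8 Hox genes lower in DKO (Hoxa2, Hoxa6, Hoxa7, Hoxa9, Hoxb8, Hoxd3, Hoxd4 and Hoxd13) and 1 higher (Hoxc13), with 20.7% of all genes lower and 22% higher. EdgeR on the reads recovered from the table, which lets low counts vary more than high ones, called 20 lower and 4 higher, with 22.1% of all genes lower and 22.9% higher. Limma on the 6 RA libraries alone called 20 lower and 7 higher, with 23% of all genes lower and 23.8% higher. The authors' deposited table had 20 lower and 6 higher, with 19.8% of its genes lower and 20.4% higher. In the 12-library fit, Hox genes with few reads in Serum/LIF carry the wide log2 spread of those libraries into the RA comparison, so its SE for Hoxb5 is 0.42 while its 3 DKO libraries lie between 8079 and 8337. The direction of each fold change is the same in all of these. The median log2 difference over the 32 genes was -0.42, against 0.01 over all genes tested. The groups did not overlap for 19 genes lower and 7 higher in DKO, and over all genes for 26.5% lower and 28% higher. Without replicate 2 of WT, edgeR called 17 lower and 4 higher, and the calls of Hoxa9, Hoxb2 and Hoxd13 were lost.

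**Figure D3:**
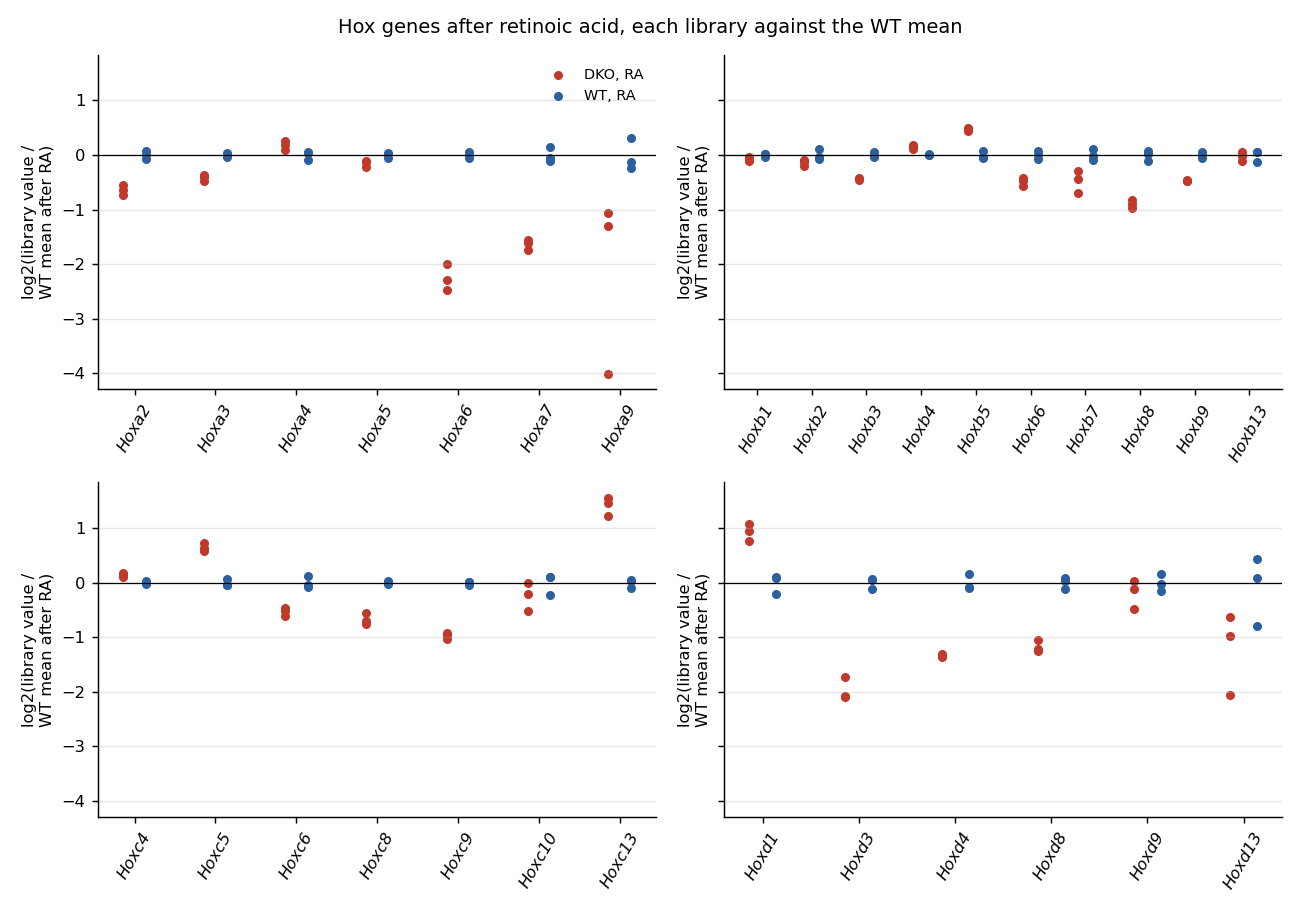
Each RA library of DKO (left) and WT (right) as log2 of its value over the WT mean, for Hox genes (all but 1) that averaged 20 or more after RA in either genotype, in order from 3′ to 5′. In Hoxa, Hoxb and Hoxc the DKO points of paralogues 6 to 9 lie below all WT points, with Hoxa6 and Hoxa7 among the lowest, and those of Hoxb5, Hoxc5, Hoxd1 and Hoxc13 lie above all WT points.

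By position, edgeR called 3 higher and 8 lower of 15 genes in paralogues 1 to 5, 0 higher and 11 lower of 12 in paralogues 6 to 9, and 1 higher and 1 lower of 5 in paralogues 10 to 13. Limma with 12 libraries called 0 higher and 3 lower in paralogues 1 to 5, 0 higher and 4 lower in paralogues 6 to 9, and 1 higher and 1 lower in paralogues 10 to 13. Over all genes, edgeR called 22.9% higher and 22.1% lower, and limma 22% higher and 20.7% lower. The 1 gene of paralogues 6 to 9 that neither called was Hoxd9, at 32.7 ± 5.63 normalized counts in DKO and 36.9 ± 4.17 in WT (SD, n = 3 each). For the 0 higher in paralogues 6 to 9, DESeq2 and limma on the RA libraries alone also gave 0, with 11 lower in each. All of these fits used the same RA libraries. The classes share the boundary between paralogues 5 and 6 with the step below, so their counts are a description and no test.

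The step fell between paralogues 5 and 6 in Hoxa, Hoxb and Hoxc, a boundary picked after the values were seen and so given as a description. The ratio of Hoxb5 to Hoxb6 was 2.93, 2.90 and 3.22 in the DKO libraries after RA, against 1.49, 1.56 and 1.61 in the WT libraries. For Hoxc5 over Hoxc6 it was 8.73, 8.38 and 7.90 in DKO, against 3.29, 4.11 and 3.72 in WT. For Hoxa5 over Hoxa6 it was 77.5, 60.5 and 72.5 in DKO, against 17.2, 16.7 and 15.2 in WT. In all 3 clusters every DKO library lay above every WT library. The span of Hoxa3 in the table covers Hoxa4, Hoxa5 and Hoxa6, so how reads were shared among these genes is uncertain, and no such overlap touches Hoxb5, Hoxb6 or Hoxc6.

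Among the central genes, Hoxa6 and Hoxa7 pattern the thorax, and both were far lower in DKO. Hoxa6 had 64.5, 89.1 and 73.4 normalized counts in DKO after RA, against 343, 357 and 371 in WT. It was lower in DKO by log2 -2.24 ± 0.56 (limma adjusted p = 0.00238; edgeR adjusted p = 2.59e-10). Hoxa7 had 93.9, 90.9 and 83.2 in DKO, against 268, 257 and 308 in WT, a log2 difference of -1.62 ± 0.36 (limma adjusted p = 0.000823). Hoxa9, used further towards the tail, had 1.90, 14.7 and 12.5 in DKO, against 27.9, 38.1 and 26.0 in WT. Its log2 difference of -1.88 ± 0.64 (limma adjusted p = 0.0204) rests on 32 reads in DKO and 98 in WT and was lost without DKO replicate 1 (-1.10, limma adjusted p = 0.165) or without WT replicate 2 (-1.72, limma adjusted p = 0.0709).

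Hoxb8, a regulator of the spinal cord and of myeloid cells, had the smallest p of the Hoxb genes. It had 3707, 4114 and 3898 normalized counts in DKO after RA, against 7399, 7653 and 6761 in WT, and no DKO library came near a WT library. The log2 difference was -0.90 ± 0.15 (limma adjusted p = 3.57e-05). Hoxb6, Hoxb7 and Hoxb9 shared this direction, with log2 differences of -0.48, -0.47 and -0.47 that edgeR called and limma with 12 libraries did not. Hoxb3 was also lower by edgeR, at -0.43. The opposite held for Hoxb5, which had 8079, 8300.4 and 8337 in DKO after RA, against 5737, 6269.9 and 5819 in WT. The log2 difference of 0.47 ± 0.42 was not called by limma with 12 libraries (adjusted p = 0.409) and was called higher by edgeR (adjusted p = 4.75e-09). Hoxb4 was 6268 ± 146 in DKO and 5666 ± 36.6 in WT (SD, n = 3 each) and was not called by edgeR or by limma with 12 libraries. Every DKO library of Hoxb4 lay above every WT library, and the authors' deposited table called it higher (log2 0.15, adjusted p = 0.0037). Hoxb13, at the far 5′ end, had a log2 difference of -0.02 ± 0.48.

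In Hoxc, Hoxc5 had a log2 difference of 0.65 ± 0.83 that edgeR called higher (adjusted p = 7.3e-09) and limma with 12 libraries did not (adjusted p = 0.572), and Hoxc6, Hoxc8 and Hoxc9, genes of the thorax, were lower by log2 -0.53, -0.67 and -0.97 and called by edgeR. Hoxc6 had 555, 614 and 594 normalized counts in DKO, against 921, 801 and 819 in WT. Hoxc13, which works in hair and nail, was the 1 Hox gene that limma with 12 libraries called higher. It had 56.9, 53.3 and 44.7 in DKO, against 19.8, 20.1 and 17.9 in WT, a log2 difference of 1.37 ± 0.33 (limma adjusted p = 0.00189). In Serum/LIF, Hoxc13 had 22.9, 28.2 and 33.8 in DKO and 17.2, 17.2 and 13.1 in WT, with no overlap, and the log2 difference of 0.79 ± 0.33 was not called (limma adjusted p = 0.0721).

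The Hoxd cluster lost the largest share of its summed level: 1085 ± 24.6 in DKO and 2567 ± 217 in WT (SD, n = 3 each). The sums were 13697 ± 176 in DKO and 16180 ± 356 in WT for Hoxa, and 41838 ± 955 in DKO and 47005 ± 1459 in WT for Hoxb. For Hoxc the order turned, with 9538 ± 282 in DKO and 8425 ± 129 in WT. Hoxd3 had 178, 229.6 and 179.9 in DKO after RA, against 787, 797 and 701 in WT, a log2 difference of -1.96 ± 0.37 (limma adjusted p = 0.000154). Hoxd4, whose retinoic acid response elements are well studied, had 563, 555 and 577 in DKO, against 1345, 1591 and 1329.6 in WT, a log2 difference of -1.32 ± 0.41 (limma adjusted p = 0.0119). The spans of Hoxd3 and Hoxd4 overlap on the same strand, so reads may have been shared or dropped between them.

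Hoxd8 followed with 92.0, 89.1 and 103 in DKO, against 217, 225 and 196 in WT, called by edgeR (adjusted p = 0.000122) and not by limma with 12 libraries (adjusted p = 0.0707). Hoxd1 went the other way, with 195, 178 and 157 in DKO, against 99.1, 98.3 and 80.7 in WT (edgeR adjusted p = 0.00194; limma adjusted p = 0.0776). Hoxd13, a digit and genital gene, had 19.0, 23.9 and 8.95 in DKO, against 39.6, 50.2 and 21.5 in WT. These groups overlap, and the call (log2 -1.08 ± 0.41, limma adjusted p = 0.0383) was lost without DKO replicate 1 or 3 or WT replicate 1 or 2 (log2 -1.20 to -0.69, limma adjusted p = 0.0505 to 0.219).

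Of the 3′ genes of Hoxa, Hoxa2, the selector of the second branchial arch, was lower in DKO after RA and higher in DKO before it. Hoxa2 had 453, 512 and 484 normalized counts in DKO after RA, against 793, 754 and 711 in WT, and 41.3, 30.5 and 40.6 in DKO with Serum/LIF, against 28.6, 19.3 and 20.6 in WT. The log2 difference was -0.64 ± 0.17 after RA (limma adjusted p = 0.00469) and 0.70 ± 0.17 in Serum/LIF (limma adjusted p = 0.00322), and the groups did not overlap in either condition. On the Serum/LIF libraries alone, limma did not call the Serum/LIF difference (adjusted p = 0.118). The interaction, which is the genotype difference after RA minus that in Serum/LIF, was -1.34 ± 0.25 (limma adjusted p = 0.000201).

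In Serum/LIF, where Hox levels were low, DKO cells had less RNA of several Hoxa and 3′ Hoxb genes. Limma called 8 lower (Hoxa3, Hoxa4, Hoxa5, Hoxa7, Hoxa9, Hoxb1, Hoxb2 and Hoxc6) and 1 higher (Hoxa2), against 15.4% lower and 17.8% higher over all genes. EdgeR gave 8 lower and 1 higher, with Hoxa10 in and Hoxc6 out, against 16.1% lower and 17.7% higher over all genes. Of the 9 Hoxa genes tested, 5 were lower and 1 higher, of the 10 Hoxb genes 2 were lower, of the 7 Hoxc genes 1 was lower, and of the 6 Hoxd genes 0 were called by limma, edgeR or DESeq2. The median log2 difference was -0.31 over the 32 genes, -1.15 over the Hoxa genes tested and -0.01 over all genes. With the Serum/LIF libraries alone, limma called 6 Hox genes lower and 0 higher, with 2511 lower and 2570 higher of all 15750 genes.

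**Figure D4:**
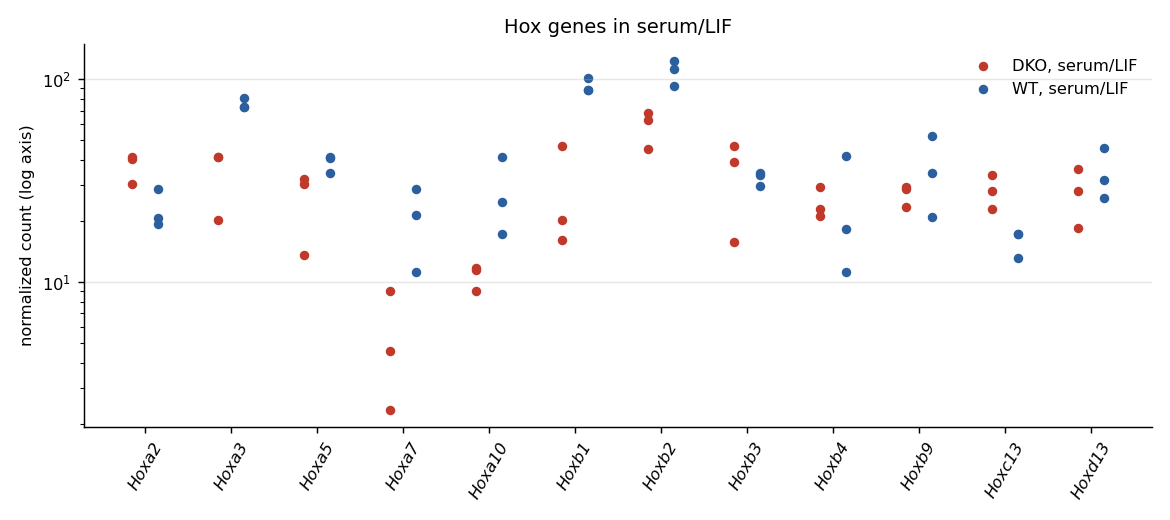
Normalized counts on a log axis of Hox genes (all but 1) that averaged 20 or more in Serum/LIF in either genotype, with DKO left of WT and 1 point per library. The DKO libraries of Hoxa3, Hoxa5, Hoxa7, Hoxa10, Hoxb1 and Hoxb2 lie below all WT libraries, and those of Hoxa2 and Hoxc13 lie above. Those of Hoxb3, Hoxb4, Hoxb9 and Hoxd13 overlap with WT.

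Hoxb1, the marker of rhombomere 4, was lower in DKO before RA. It had 16.1, 46.9 and 20.3 normalized counts in DKO with Serum/LIF, against 88.8, 88.1 and 101 in WT, a log2 difference of -1.85 ± 0.31 (limma adjusted p = 0.00159). Hoxb2 had 63.1, 68.1 and 45.1 in DKO, against 122, 92.4 and 112 in WT (-0.89 ± 0.12, limma adjusted p = 7.85e-06). After RA, Hoxb1 had 5501, 5835 and 5571 in DKO, against 6023, 6031 and 5792 in WT, and these overlapped. The interaction was 1.77 ± 0.44 for Hoxb1 (limma adjusted p = 0.0146) and 0.75 ± 0.17 for Hoxb2 (limma adjusted p = 0.00216), so the RA response in DKO was larger by that much on the log2 scale.

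Hoxa3, a gene of the pharyngeal arches, had 41.3, 41.1 and 20.3 normalized counts in DKO with Serum/LIF, against 72.6, 73.1 and 80.4 in WT (log2 -1.18 ± 0.18, limma adjusted p = 4.78e-05). After RA it had 2326, 2212 and 2398 in DKO, against 3162, 2997 and 3101 in WT. Hoxa4 had 13.8, 4.69 and 4.51 in DKO with Serum/LIF, against 11.5, 15.04 and 24.3 in WT, groups that overlap (log2 -1.15 ± 0.30, limma adjusted p = 0.00741). After RA it had 1697, 1774 and 1579 in DKO, against 1555, 1396 and 1523 in WT. The Serum/LIF call of Hoxa4 was lost without DKO replicate 2 or 3, at limma adjusted p = 0.0604 and 0.0599. The interaction was 0.77 ± 0.25 for Hoxa3 and 1.33 ± 0.43 for Hoxa4 (limma adjusted p = 0.029 and 0.027).

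Hoxa7 had 4.59, 2.35 and 9.01 normalized counts in DKO with Serum/LIF, against 28.6, 21.5 and 11.2 in WT (log2 -1.81 ± 0.36, limma adjusted p = 0.000375). It is the gene of the central set that was lower in DKO in both conditions with no overlap and with a limma call whichever library was left out. Hoxa9 had 2.29, 2.35 and 4.51 in DKO, against 5.73, 25.8 and 11.2 in WT, on 8 and 42 reads (log2 -1.73 ± 0.64, limma adjusted p = 0.0401). Hoxa5 was called just inside the threshold, at log2 -0.68 ± 0.24 (limma adjusted p = 0.0497). Both calls were lost without single libraries: for Hoxa9 without DKO replicate 1 or 2 or WT replicate 2 or 3 in Serum/LIF or WT replicate 1 after RA (limma adjusted p = 0.0527 to 0.218), and for Hoxa5 without any WT library in Serum/LIF or WT replicate 2 or 3 after RA (limma adjusted p = 0.0501 to 0.167). The limma call of Hoxc6 sets 0 reads in DKO against 4 in WT.

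Besides Hoxa2, 3 genes (Hoxb8, Hoxd8 and Hoxd3) had an RA response that was smaller in DKO by the test of the interaction. For Hoxb8, with 16.1, 21.1 and 12.4 normalized counts in DKO with Serum/LIF and 15.3, 10.7 and 11.2 in WT, it was -1.27 ± 0.21 (limma adjusted p = 6.69e-05). For Hoxd8, with 9.17, 4.69 and 2.25 in DKO with Serum/LIF and 3.82, 4.30 and 0 in WT, it was -2.12 ± 0.72 (limma adjusted p = 0.0279) and was lost without any of 6 single libraries (limma adjusted p = 0.052 to 0.0853). For Hoxd3 it was -1.96 ± 0.53 (limma adjusted p = 0.00629), but with 0 reads in every Serum/LIF library the value is the genotype difference after RA and nothing more, and edgeR did not call it (adjusted p = 1). Over the 32 genes the interaction was higher for 4 and lower for 4 in limma, against 14.8% and 16% of all genes, and higher for 4 and lower for 3 in edgeR, against 15.1% and 16.6%.

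Genes that act before and beside the Hox proteins were given by lists, and the shares of all genes that limma called stand beside the counts. Of 15 upstream regulators tested, 11 rose and 4 fell with RA in WT, against 41.4% and 39.2% of all genes. After RA 4 of the 15 were higher and 2 lower in DKO than in WT, against 22% and 20.7% of all genes. Cyp26a1, the RA-degrading enzyme and a direct RA target, rose by log2 8.47 ± 0.09 in DKO and 8.08 ± 0.09 in WT, and its DKO and WT levels after RA were 19225 ± 234 and 18229.8 ± 254 (SD, n = 3 each; log2 0.08 ± 0.09, limma adjusted p = 0.544). Rarg, an RA receptor, was at 2707 ± 34.8 in DKO after RA and 1164 ± 37.4 in WT (log2 1.22 ± 0.04, limma adjusted p = 3.02e-16). Cdx1, which activates central Hox genes, had 409, 377 and 311 in DKO after RA, against 184, 182 and 143 in WT (log2 1.11 ± 0.20, limma adjusted p = 9.19e-05). Cdx1 thus stood higher in the group where most central Hox genes stood lower, and its part in those levels was not tested.

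Of the 9 TALE cofactors that bind DNA with Hox proteins, 8 rose and 1 fell with RA in each genotype. Over all genes, 40.2% rose and 38.2% fell in DKO, and 41.4% rose and 39.2% fell in WT. Meis1 rose by log2 4.53 ± 0.08 in DKO and 5.22 ± 0.08 in WT. After RA 2 of the 9 cofactors were higher and 3 lower in DKO, against 22% and 20.7% of all genes. Meis1 was at 6179 ± 253 in DKO and 7979 ± 200 in WT (SD, n = 3 each; log2 -0.37 ± 0.08, limma adjusted p = 0.000513). Of 9 markers of the forebrain and midbrain tested, 4 fell and 3 rose with RA in each genotype, near the shares of all genes. Among the 4 that fell, Otx2 changed by log2 -6.39 ± 0.47 in DKO and -8.84 ± 0.47 in WT. Of 8 caudal progenitor markers tested, 3 (Cdx1, Fgf17 and T) were higher in DKO after RA and none lower in limma, against 22% and 20.7% of all genes. Of 13 genes that flank the clusters, 4 were higher and 4 lower in DKO after RA, against 22% and 20.7% of all genes. Among them Ttll6, beside Hoxb13 and named after its values were seen, was at 271 ± 3.60 in DKO and 93.9 ± 19.99 in WT (SD, n = 3 each; log2 1.54 ± 0.12, limma adjusted p = 1.82e-10).

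The Hoxb cluster also carries microRNA genes, and 2 of them had rows in the table. The mature products are shown because their host cluster was the one induced throughout in both genotypes, with the seed (bases 2 to 8) in capitals, from RefSeq (GRCm38.p6). Their seeds differ.
mmu-miR-10a-5p, chr11:96317186-96317208, plus strand: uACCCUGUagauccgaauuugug
mmu-miR-196a-5p, chr11:96265187-96265208, plus strand: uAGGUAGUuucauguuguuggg

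The table counts reads on the microRNA gene, not the mature product, and such reads can come from longer transcripts of the cluster. Mir10a, which lies between Hoxb4 and Hoxb5, had 30.3, 65.2 and 41.2 normalized counts in DKO after RA, against 49.5, 41.1 and 58.3 in WT, and 0 reads in all 6 Serum/LIF libraries. The genotypes overlapped after RA (log2 -0.18 ± 0.60, limma adjusted p = 0.84). Mir196a-1, which lies 5′ of Hoxb9, had 0.948, 1.84 and 7.16 in DKO after RA, against 21.8, 10.6 and 21.4 in DKO with Serum/LIF. In WT it had 0.901, 2.01 and 0.897 after RA, against 17.2, 1.07 and 14.03 in Serum/LIF. It fell with RA by log2 -2.34 ± 0.81 in DKO and -1.90 ± 0.81 in WT (limma adjusted p = 0.0117 in DKO and 0.0357 in WT, where the conditions overlap), while Hoxb9, on its 3′ side, and Hoxb13, on its 5′ side, both rose.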

How the data were processed

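The values are normalized counts (unit: signal), which per the submitters' processing notes came from Trim Galore 0.6.10, STAR 2.7.11b, featureCounts of Subread 2.0.6 and DESeq2 1.44.0 on mm10; the sources used here do not give strand or multimapping settings. Every deposited value of this signal was within 0.01 of a whole read after multiplying by 1 size factor per library (100% of values), so reads could be recovered. The authors' deposited table also gave log2 fold changes and adjusted p-values, used as an alternative.

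The members and all lists were chosen with earlier results of these data known. Limma 3.58.1 (R 4.3.3, trend and robust) was fitted to log2(value + 1) of the 15750 genes with 10 or more in at least 3 of 12 libraries, with 1 mean per group, 5 contrasts and Benjamini-Hochberg adjustment over all genes, called at adjusted p under 0.05. The pseudocount makes fold changes of low genes too small. The whole reads were tested with edgeR 4.0.16 (quasi-likelihood) and DESeq2 1.42.0. Full values are printed for Hox genes called in a genotype comparison or the interaction with a mean of 20 or more in some group, and for the ends and the highest RA mean of each cluster in WT; values of Hoxa13, Hoxb3 to Hoxb7, Hoxb9, Hoxc8, Hoxc9 and Hoxd9 were added after they were seen. Values of 1 Hox gene and 1 cofactor are not reported here; counts, sums and medians include them. On simulated counts of 14996 genes for the Serum/LIF comparison, 200 genes with a WT Serum/LIF mean of 10 or more were changed. Limma recovered 84% of these at log2 1 and 99% at log2 2, and 4.19% of its calls were false. Hox genes with a lower WT Serum/LIF mean are not covered by this recovery. The simulation gave every library, RA libraries included, the WT Serum/LIF level, apart from the changed genes in DKO with Serum/LIF. It therefore does not cover genes whose level or spread differs after RA, as for most Hox genes. Transcript lengths came from GENCODE vM21. Alternatives were another pseudocount, filter, scaling, tool, block or set of libraries.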

Additional observations from a re-analysis of the deposited data

Results flagged for a closer look

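The genotype difference of 8 Hox genes was not the same after RA and in Serum/LIF by the test of the difference itself (limma interaction, adjusted p under 0.05; 14.8% of all genes tested passed with a higher and 16% with a lower value). The log2 difference between DKO and WT after RA, minus that in Serum/LIF, was -1.34 for Hoxa2, 0.77 for Hoxa3, 1.33 for Hoxa4, 1.77 for Hoxb1, 0.75 for Hoxb2, -1.27 for Hoxb8, -1.96 for Hoxd3 and -2.12 for Hoxd8. Hoxa2 changed sides, being higher in DKO in Serum/LIF and lower in DKO after RA with no overlap of libraries in either condition. Hoxa3, Hoxa4, Hoxb1 and Hoxb2 were lower in DKO in Serum/LIF by the same fit and were not called after RA by that fit. The authors' deposited table called Hoxa3 (log2 -0.42, adjusted p = 7.5e-11) and Hoxb2 (log2 -0.14, adjusted p = 0.024) lower in DKO after RA. It did not call Hoxa4 or Hoxb1 there. The DKO libraries of Hoxa3 after RA lay below all WT libraries. For Hoxd3 the Serum/LIF term holds 0 reads in both genotypes. The calls of Hoxa2, Hoxb1, Hoxb2, Hoxb8 and Hoxd3 held whichever single library was left out, and those of Hoxa3, Hoxa4 and Hoxd8 did not. For Hoxd3, leaving out a Serum/LIF library cannot move the estimate, and edgeR did not call its interaction.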

How the results depend on the processing

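Across all alternatives 26 to 30 Hox genes rose with RA in DKO and 26 to 29 in WT, the lowest at the filter of 50, which tests fewer genes. The genotype counts after RA moved more. Against 1 higher and 8 lower, a pseudocount of 5 gave 2 and 14, a filter at 50 gave 0 higher, limma on the RA libraries alone 7 and 20 (6 and 18 without WT replicate 2, 7 and 20 with the replicate block), edgeR 4 and 20 (4 and 17 without WT replicate 2), DESeq2 6 and 20, and the authors' deposited table gave 6 and 20. The variants without WT replicate 2 and the blocked fit on the RA libraries were chosen after seeing the data. Leaving out single libraries gave 1 to 2 higher there. In Serum/LIF the 1 gene called higher became 0 with only the groups compared and 1 to 4 with single libraries left out, the 4 of DKO replicate 3, where Hoxb3 turned from an uncalled -0.07 to 0.39 (limma adjusted p = 0.00422; -0.37 to 0.39 over single libraries left out; the cause was not tested). The 4 genes with a larger interaction became 2 to 6, 2 without WT replicate 2 or 3 and 6 without DKO replicate 1 in Serum/LIF. Hoxa10, the 1 gene that fell in WT, was not tested at a filter of 50, which gave 0. Detection at 100 left 1 gene in DKO and 1 in WT in Serum/LIF. Replicate numbers did not pair the samples (correlations of deviations -0.032 to 0.051), and in the 12-library fit the replicate block gave 9 lower and 1 higher after RA, adding Hoxd8. Scaling to library totals moved the median of all genes with RA by 0.23 in DKO and 0.26 in WT. Depth limits the Serum/LIF values, such as those of Hoxc6 with 0 reads in DKO and 4 in WT.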
